A study of Mus musculus with 2 samples.

Results

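The Ebf factors and the adipocyte lineage genes around them were followed through the skin of mouse embryos at E14.5. The set held 8 of the 32285 genes in the count matrices, chosen by name: the transcription factor genes Ebf1, Ebf2 and Ebf3, the adipocyte regulators Pparg, Cebpa, Cebpb and Zfp423, and the lipid carrier gene Fabp4. No measured value set the list, but it was chosen with earlier results of these data known. For each member the unique molecular identifiers (UMIs, which count captured mRNA molecules) and the share of cells with a UMI were taken in the dermis, split into a lower and an upper type, and in each other cell type that its markers defined.

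Cells came from dorsolateral and flank skin, dissociated with trypsin, stained with DAPI, sorted, and profiled with droplet-based single-cell RNA sequencing. One library was labelled Wntless mutant and came from embryos in which K14Cre, a transgene driven by a keratin promoter of the epidermis, had been bred to Wntless fl/fl, a conditional allele of the gene Wls, whose product carries Wnt ligands to the cell surface. The other library was labelled wildtype and came from littermate control embryos, whose Cre and floxed alleles the labels do not detail. Each library pooled 2 to 3 embryos, so there was 1 library per genotype, no replicate check and no test. Every interval below is a 95% interval for counting error only, and a difference between genotypes is a difference between these 2 libraries.

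Early B-cell factors (EBFs) bind DNA as dimers and act in B cells, neurons, bone marrow stroma and fat. In preadipocytes they act upstream of Pparg, the nuclear receptor that drives the adipocyte programme, and Ebf2 in particular marks brown and beige fat precursors. Zfp423 commits fibroblasts to the preadipocyte fate, Cebpb acts early and Cebpa late in differentiation, and Fabp4 is a product of the differentiated fat cell that endothelial cells also make. In the embryonic back skin, papillary fibroblasts lie under the epidermis and the reticular and fat-forming fibroblasts lie deeper, so the members mark a lineage expected in the lower dermis.

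By GRCm38 coordinates (GENCODE), Ebf1 lies on chromosome 11 (44617317 to 45008091, plus strand), Ebf2 on chromosome 14 (67233292 to 67430918, plus) and Ebf3 on chromosome 7 (137193673 to 137314445, minus). Pparg lies on chromosome 6 (115360951 to 115490399, plus), Cebpa on chromosome 7 (35119293 to 35121928, plus) and Cebpb on chromosome 2 (167688915 to 167690418, plus). Fabp4 lies on chromosome 3 (10204088 to 10208576, minus) and Zfp423 on chromosome 8 (87661810 to 87959595, minus). All 8 are protein-coding genes, and each value counts UMIs over the whole gene.

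RefSeq promoter windows (GRCm38.p6, 250 bases before to 50 bases after a start) were held for 6 of the 8 members, in 10 windows. They were searched on both strands for CCCNNGGGA, the core of the EBF motif, and TTGCNNAA, the core of the C/EBP motif, which occurred in 6.56% and 10.8% of the 32851 windows of the same length in the table. The EBF letters occurred once in a window of Cebpb, at position -209, and once in the window of Ebf3, at position -22. The C/EBP letters occurred in 2 windows, shown because they were the only member windows with that match. The Pparg window spans chr6:115421816-115422115 (plus strand) and the Zfp423 window chr8:87959546-87959845 (minus strand), each printed 5′ to 3′ with the C/EBP matches in capitals.
Pparg: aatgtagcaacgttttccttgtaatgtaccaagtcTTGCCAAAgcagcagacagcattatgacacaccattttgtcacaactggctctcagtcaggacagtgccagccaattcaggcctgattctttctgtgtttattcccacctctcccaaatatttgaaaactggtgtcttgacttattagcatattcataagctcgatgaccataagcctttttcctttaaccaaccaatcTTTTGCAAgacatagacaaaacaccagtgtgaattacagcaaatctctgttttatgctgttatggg
Zfp423: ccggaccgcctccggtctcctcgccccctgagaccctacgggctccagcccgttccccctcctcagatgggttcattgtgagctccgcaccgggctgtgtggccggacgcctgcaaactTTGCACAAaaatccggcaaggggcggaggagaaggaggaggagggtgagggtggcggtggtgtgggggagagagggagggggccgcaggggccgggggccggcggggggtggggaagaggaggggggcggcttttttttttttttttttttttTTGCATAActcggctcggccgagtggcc
In Pparg the matches begin at positions -215 and -16 from the start, and in Zfp423 at -131 and 23, where position 1 is the first transcribed base. A match describes letters in a window. Droplet counts do not tell which start of Pparg or Zfp423 was used.

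The mutant library held 10449 barcodes (median 14602 UMIs) and the wildtype library 9065 (median 11341 UMIs), 19 barcodes being shared. Wls was at 7.64 CPM (UMIs per 1000000 UMIs of the class) in mutant epidermis and 122.7 CPM in wildtype epidermis, and at 77.0 and 91.8 CPM in the dermis. Dermal cells were those on the authors' lists, 5028 mutant (median 15566 UMIs) and 5300 wildtype (median 11154 UMIs), and their 9 fibroblast markers summed to 21990 and 15679 CPM. Clusters 0, 4 and 17 of the dermis came almost wholly from 1 library, 2093 mutant and 99 wildtype listed cells in cluster 0, 27 and 1547 in cluster 4, and 0 and 262 in cluster 17.

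Lower-type cells carried a UMI of Clec3b or Mfap5, genes of the deeper dermis, and none of Crabp1, a gene of the upper dermis, and upper-type cells the reverse. The gate was read in cells thinned to 9000 UMIs, which left out 367 mutant and 1300 wildtype cells as too shallow. Wildtype cells left out had Clec3b at 143 CPM and Mfap5 at 60.4 CPM, against 88.0 and 43.8 CPM over all listed wildtype cells. Mutant cells left out had them at 245 and 79.7 CPM, against 191.6 and 83.6 CPM. In the mutant library 675 of 4661 cells were lower-type (14.48%, 13.5 to 15.5%, Clopper-Pearson) and 2892 upper-type (62.0%). In the wildtype library 244 of 4000 cells were lower-type (6.1%, 5.38 to 6.89%) and 3061 upper-type (76.5%). A further 986 mutant and 614 wildtype cells carried UMIs of both sides, and 108 and 81 of neither. A Crabp1 UMI takes a cell out of the lower type, and Crabp1 was also found outside the dermis. After thinning it was in 40.7% of mutant and 61.7% of wildtype mural cells, and in 17.4% and 31.4% of macrophages. The part of such UMIs in the lower-type shares was not tested. A lone UMI placed 80 of the lower-type mutant cells and 35 of the lower-type wildtype cells in their class. Most lower-type cells lay in cluster 2, led by Mfap5 and Clec3b, in both libraries (433 of 675 and 149 of 244), whereas most upper-type mutant cells lay in cluster 0 (1753) and the largest share of upper-type wildtype cells in cluster 4 (1074). Before the depth cut, cluster 2 held 989 of the 5028 listed mutant and 639 of the 5300 listed wildtype cells. Of these, 918 and 433 were deep enough to gate.

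The first comparison asked where in the dermis the members lie. Of the 8 members, 6 were at least 1.5-fold higher in lower-type than in upper-type cells of both libraries, namely all 3 Ebf genes, Pparg, Zfp423 and Fabp4. Over all measured genes (20 or more UMIs over both sums) 21.2% were that much higher in lower-type cells of the mutant library and 21.2% in those of the wildtype library. The median log2 ratio of the members was 2.25 in mutant and 2.16 in wildtype cells, against 0.01 and -0.01 over all measured genes. Cebpb and Cebpa did not share the pattern: neither was 1.5-fold higher in lower-type cells, and Cebpa was at least 1.5-fold lower in lower-type cells of the wildtype library, as were 17.6% of all measured genes there.

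Ebf1, the most broadly found of the 3 Ebf genes, was at 359.2 CPM (347.9 to 370.8) in lower-type and 111.7 CPM (108.7 to 114.7) in upper-type cells of the mutant library. In the wildtype library it was at 346.5 CPM (325.5 to 368.6) in lower-type and 135.1 CPM (131.6 to 138.7) in upper-type cells. The fold of lower-type over upper-type was 3.22 in mutant and 2.56 in wildtype cells. After thinning, 79.0% of lower-type and 49.3% of upper-type mutant cells had an Ebf1 UMI, and 83.2% and 39.4% of wildtype cells. Before thinning the shares were 84.7% and 62.8% in mutant cells and 85.2% and 45.7% in wildtype cells. Thus Ebf1 was found on both sides of the dermis and differed in its level and in its share of cells.

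Ebf2 was scarce in upper-type cells. It had 296 UMIs in 675 lower-type mutant cells (27.96 CPM, 24.9 to 31.3) and 15 UMIs in 2892 upper-type mutant cells (0.305 CPM, 0.171 to 0.503), a fold of 91.8. It had 41 UMIs in 244 lower-type wildtype cells (14.0 CPM, 10.1 to 19.01) and 8 UMIs in 3061 upper-type wildtype cells (0.193 CPM), a fold of 72.4. The thinned share of cells with an Ebf2 UMI was 17.2% of lower-type and 0.207% of upper-type mutant cells, and 9.84% of lower-type and 0.0980% of upper-type wildtype cells. Erythroid cells, which should lack the gene, gave 0 of 1091 mutant and 0 of 257 wildtype cells after thinning, which allows up to 0.275% and 1.17% (median depths 12291 and 8103 UMIs), and at 0.281 and 0.192 CPM, so upper-type Ebf2 could not be told from background. Cells outside both types held Ebf2 too: those with both gates had 200 mutant and 70 wildtype UMIs (11.5 and 8.40 CPM), and those with neither had 29 and 4 UMIs (18.0 and 4.10 CPM).

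Ebf3 was at 51.1 CPM (46.9 to 55.6) in lower-type and 1.02 CPM (0.754 to 1.34) in upper-type mutant cells, a fold of 50.3. In wildtype cells it was at 38.6 CPM (31.8 to 46.4) in the lower type and 1.81 CPM (1.43 to 2.27) in the upper type, a fold of 21.3. Thinned shares were 32.0% and 0.692% of mutant cells and 26.6% and 1.54% of wildtype cells. Ebf3 thus stood with Ebf2 in being scarce in upper-type cells of both libraries. Unlike Ebf2, it stayed above erythroid cells there, which were at 0.337 CPM (0.124 to 0.735) in the mutant and 0.192 CPM (0.005 to 1.07) in the wildtype library. This did not hold in the largest upper-type clusters. Listed cells were at 0.475 CPM (0.266 to 0.783) in mutant cluster 0 and 0.604 CPM (0.289 to 1.11) in wildtype cluster 4, overlapping the erythroid intervals. Cluster 3, with 177 mutant and 245 wildtype upper-type cells, was at 17.4 and 12.4 CPM over its listed cells, and wildtype cluster 17 at 11.4 CPM.

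Pparg was at 27.6 CPM (24.5 to 30.9) in lower-type and 5.73 CPM (5.08 to 6.44) in upper-type mutant cells, and at 18.8 CPM (14.2 to 24.5) and 4.38 CPM (3.76 to 5.06) in wildtype cells. The folds were 4.81 and 4.30. Zfp423 was at 18.3 CPM (15.8 to 21.1) and 3.88 CPM (3.35 to 4.47) in mutant cells and at 21.5 CPM (16.5 to 27.5) and 4.62 CPM (3.99 to 5.32) in wildtype cells, with folds of 4.72 and 4.66. Unlike Ebf2, both kept a level in upper-type cells above that of erythroid cells, where Pparg was at 0.450 and 0.192 CPM and Zfp423 at 0.337 and 0.768 CPM in the mutant and wildtype libraries.

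Fabp4 was rare in the dermis. It had 46 UMIs in 18 of 675 lower-type mutant cells (4.35 CPM) and 21 UMIs in 9 of 244 lower-type wildtype cells (7.18 CPM), against 7 and 10 UMIs in upper-type cells (0.142 and 0.242 CPM). A few cells carried it, and endothelial markers, which Fabp4 goes with elsewhere in the skin, summed to 60.3 CPM in lower-type and 20.1 CPM in upper-type mutant cells, and to 36.2 CPM and 20.1 CPM in wildtype cells. Of the 9 endothelial markers, Tie1 was at 0 in lower-type mutant cells, and Cldn5, Emcn, Esam and Tie1 in lower-type wildtype cells. Their part in the Fabp4 level was not tested.

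Cebpb and Cebpa ran through the dermis without that split. Cebpb was at 117.5 CPM (111.1 to 124.2) in lower-type and 133.6 CPM (130.4 to 136.9) in upper-type mutant cells, and at 126.1 CPM (113.6 to 139.7) and 116.1 CPM (112.8 to 119.4) in wildtype cells, where the intervals overlap. Cebpa was at 8.22 CPM (6.58 to 10.1) and 9.30 CPM (8.47 to 10.2) in mutant cells and at 4.44 CPM (2.37 to 7.60) and 6.82 CPM (6.05 to 7.66) in wildtype cells, the last pair resting on 13 and 282 UMIs. The log2 ratios of lower-type over upper-type for Cebpa were -0.18 (-0.53 to 0.15) and -0.62 (-1.55 to 0.18).

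**Figure D1:**
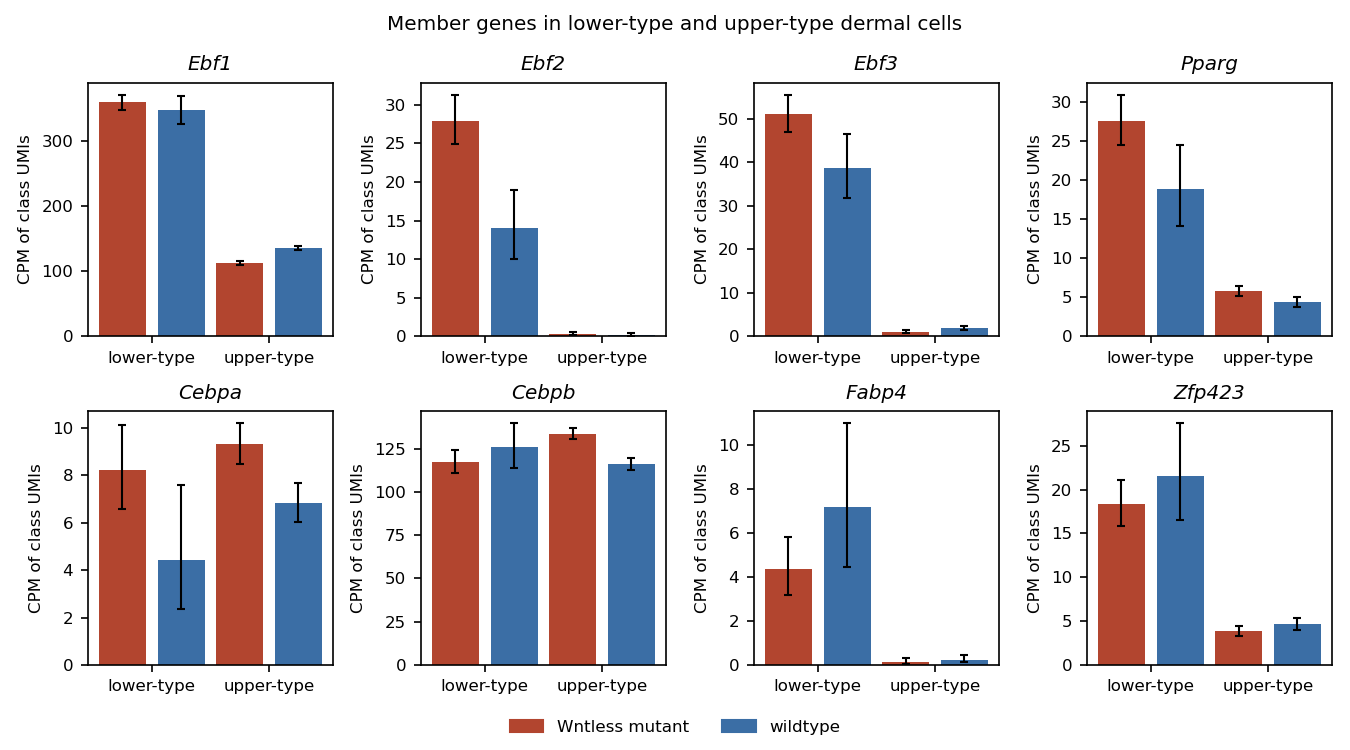
CPM of each member in lower-type and upper-type dermal cells of the Wntless mutant and wildtype libraries, with 95% Poisson intervals for counting error; each panel has its own axis. Ebf2 and Ebf3 are at 1.81 CPM or less in upper-type cells, while Cebpb stays between 116.1 and 133.6 CPM in all 4 bars.

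The same order held when cells were binned by how many Clec3b and Mfap5 UMIs they carried after thinning, from 0 through 1, 2 to 3 and 4 to 7 to 8 or more. Ebf1 stepped up through every bin, from 112.7 to 489.0 CPM in mutant cells and from 135.3 to 448.1 CPM in wildtype cells. Ebf2, at 0.9 CPM and 0.3 CPM in the lowest bin of mutant and wildtype cells, was at 18.9 CPM and 14.0 CPM with 4 to 7 UMIs, and at 30.8 CPM and 13.0 CPM in the top bin. Ebf3 was at 42.2 CPM and 42.8 CPM with 4 to 7 UMIs and at 73.3 CPM and 44.6 CPM in the top bin, and Pparg at 22.7 CPM and 22.4 CPM and then at 40.6 CPM and 22.5 CPM. For Ebf1, Ebf2, Ebf3 and Pparg the intervals of the libraries did not overlap in the top bin (563 mutant and 212 wildtype cells), where the mutant values were higher, and overlapped in the bin before it. Outside the top bin they also did not overlap for Ebf3 with 2 to 3 UMIs (29.4 and 18.1 CPM), nor in the lowest bin for Ebf2, for Pparg (5.92 and 4.42 CPM) and for Ebf1, the wildtype value being the higher there for Ebf1 alone. Zfp423 reached 17.5 CPM and 15.3 CPM in the top bin, and Cebpb was at 104.8 CPM and 122.8 CPM there against 133.3 CPM and 116.4 CPM in the lowest bin. The top bin has no upper limit, so cells within it can differ in their gate UMIs, whose part in these values was not tested; Clec3b was at 709 CPM in mutant and 513 CPM in wildtype cells of cluster 2.

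**Figure D2:**
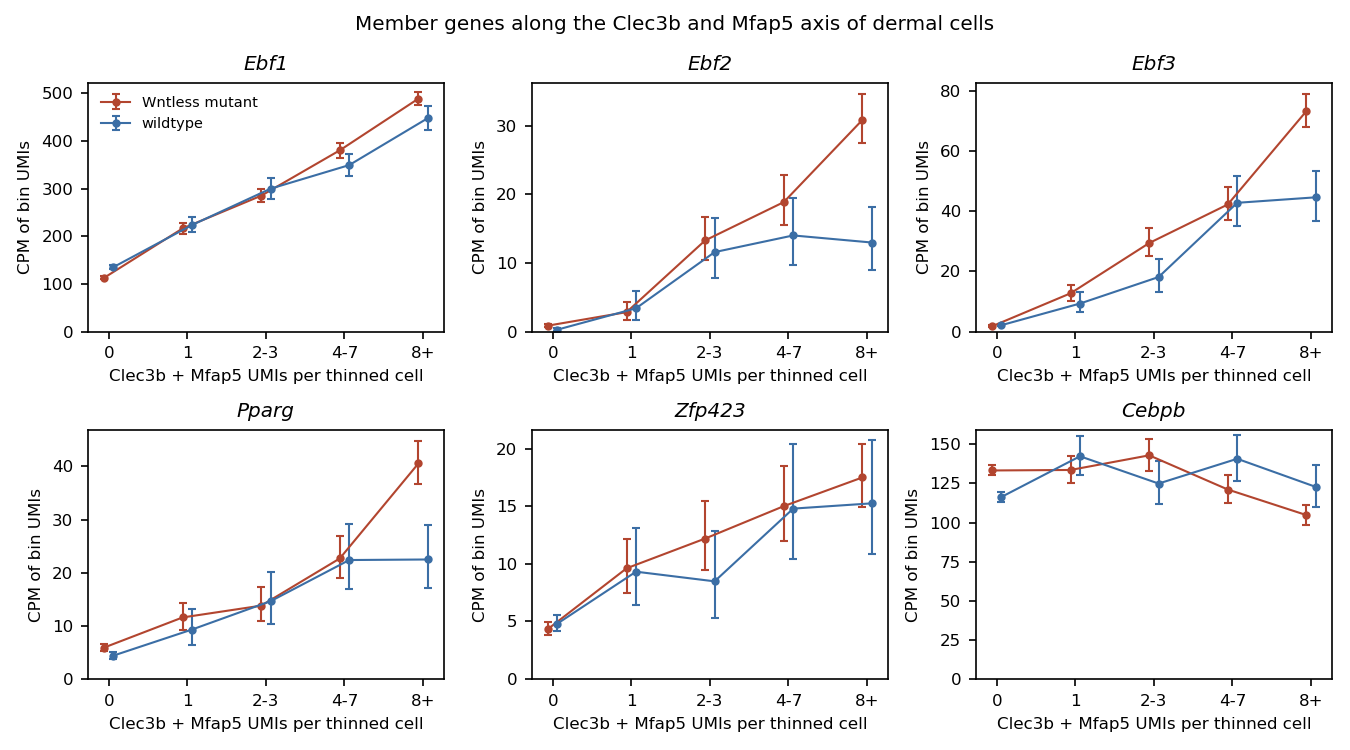
CPM of 6 members (vertical axes) in dermal cells binned by the summed Clec3b and Mfap5 UMIs of the thinned cell (horizontal axes), with 95% Poisson intervals. Ebf1 climbs through all 5 bins of both libraries, and in the last bin Ebf2, Ebf3 and Pparg are higher in the mutant library, with intervals that do not overlap.

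The next comparison asked whether the dermis of the mutant library differed in these genes. Over all dermal-list cells the mutant library had 548 Ebf2 UMIs (6.75 CPM) and the wildtype library 161 (2.56 CPM), and the log2 ratio was 1.40 (1.14 to 1.66). Ebf3 was at 16.5 and 7.79 CPM, a log2 ratio of 1.08 (0.93 to 1.23), and Pparg at 12.5 and 6.90 CPM, a log2 ratio of 0.85 (0.69 to 1.02). These 3 of the 8 members were at least 1.5-fold higher in the mutant and none was 1.5-fold lower, beside 10.9% and 5.64% of all measured genes. Cebpa was at 9.02 and 6.35 CPM (0.51, 0.33 to 0.69), Zfp423 at 7.66 and 6.35 CPM (0.27, 0.09 to 0.46), and Fabp4 at 1.01 and 0.859 CPM (0.23, -0.28 to 0.76). Ebf1 and Cebpb differed little, at 199.7 and 186.3 CPM (0.10, 0.07 to 0.14) and at 129.5 and 120.3 CPM (0.11, 0.06 to 0.15). The median log2 ratio was 0.39 over the members and 0.03 over all measured genes.

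The libraries also differed in how many lower-type cells they held. When the mutant levels of the 4 gate classes were weighted by the wildtype UMI shares of those classes, an added setting, the log2 ratio of the gated cells was 0.76 for Ebf2, against 1.58 without weighting, 0.43 for Ebf3, against 1.15, and 0.46 for Pparg, against 0.83. Zfp423 then stood at -0.04 and Ebf1 at -0.09, while Cebpa, which has no lower-type preference, stayed at 0.49 against 0.48. Fabp4 was at -0.74 with the weights and 0.05 without. At these weights Ebf2 was past 1.5-fold higher and Fabp4 past 1.5-fold lower. Neither value has an interval, and no share over all measured genes at these weights stands beside them. The weights rest on the cells deep enough to gate and on the Crabp1 UMIs that placed them, whose part was not tested. In lower-type cells Fabp4 had 46 mutant and 21 wildtype UMIs.

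Within lower-type cells, Ebf2 had a log2 ratio of mutant over wildtype of 0.997 (0.52 to 1.51), and Cebpa 1.85-fold higher (0.89, 0.04 to 1.85) on 87 and 13 UMIs. Pparg had a log2 ratio of 0.55 (0.13 to 1.0) and Ebf3 of 0.40 (0.11 to 0.71). Ebf1 (0.05, -0.05 to 0.15), Cebpb (-0.10, -0.27 to 0.07), Zfp423 (-0.23, -0.65 to 0.20) and Fabp4 (-0.72, -1.5 to 0.10) had intervals that reached 0. That made 2 members at least 1.5-fold higher and 1, Fabp4, at least 1.5-fold lower, beside 9.23% and 4.3% of all measured genes. In cells of cluster 2 the log2 ratios were 1.22 for Ebf2 (0.86 to 1.59), 1.17 for Cebpa (0.53 to 1.86), 0.71 for Ebf3 (0.52 to 0.92), 0.57 for Pparg (0.30 to 0.83) and 0.20 for Ebf1 (0.14 to 0.27).

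Shares of cells gave the same order for Ebf2 in the lower type. After thinning, 116 of 675 lower-type mutant cells (17.2%, 14.4 to 20.2%) and 24 of 244 lower-type wildtype cells (9.84%, 6.40 to 14.3%) had an Ebf2 UMI. For Pparg the shares were 18.4% (15.5 to 21.5%) and 12.7% (8.80 to 17.5%), and for Ebf3 32.0% (28.5 to 35.7%) and 26.6% (21.2 to 32.7%), both with overlapping intervals. Before thinning, the shares were 22.8% and 11.9% for Ebf2, 28.3% and 16.8% for Pparg, and 45.0% and 32.0% for Ebf3.

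Within upper-type cells the picture differed. The mutant over wildtype log2 ratio was -0.84 (-1.38 to -0.30) for Ebf3, on 50 and 75 UMIs, and -0.28 (-0.33 to -0.22) for Ebf1, on 5497 and 5589 UMIs. Of the 7 measured members, Ebf2 was past 1.5-fold higher, on 15 and 8 UMIs (0.66, -0.67 to 2.10), and Ebf3 past 1.5-fold lower, beside 8.75% and 6.99% of all measured genes. Pparg (0.39, 0.11 to 0.67), Cebpa (0.45, 0.23 to 0.67) and Cebpb (0.20, 0.15 to 0.26) lay above 0, and Zfp423 (-0.25, -0.55 to 0.05) near it. The Ebf1 and Ebf3 values rested on the wildtype cells of cluster 17: without that cluster, an added setting, the upper-type log2 ratio was 0.16 for Ebf1 and -0.29 for Ebf3. Upper-type cells also came from different clusters in the 2 libraries, and without clusters 0, 4 and 17 the log2 ratio was -0.07 for Ebf1, 0.08 for Ebf3 and -0.18 for Pparg.

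**Figure D3:**
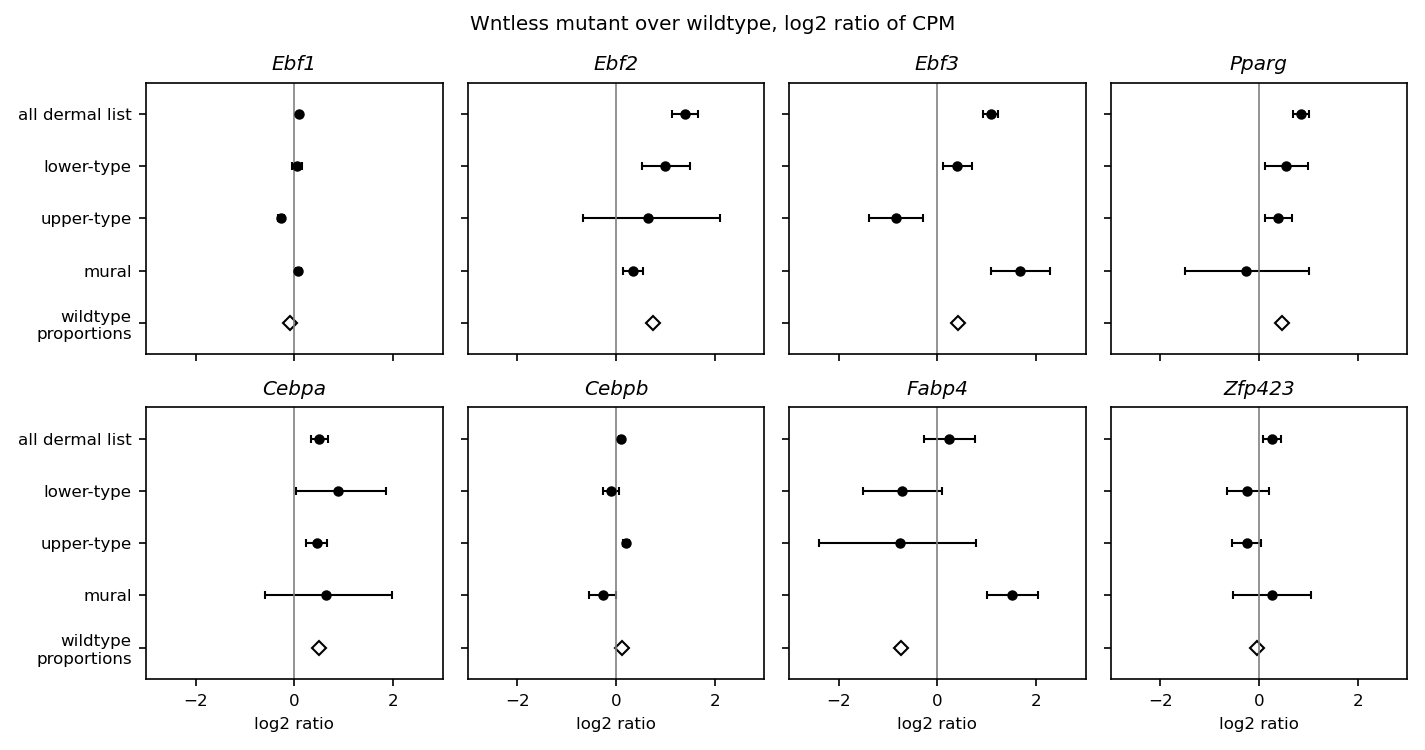
Log2 ratio of CPM, Wntless mutant over wildtype, for each member in all dermal-list cells, lower-type, upper-type and mural cells, with 95% intervals for counting error; open diamonds give the gated dermis with mutant classes weighted to wildtype proportions. Ebf2 lies above 0 in the dermal list, lower-type and mural rows, and Ebf3 lies at 1.67 in mural and -0.84 in upper-type cells.

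Cluster 17 stood out for Ebf1. It was led by Foxd1, Sox18, Gal and Sox2, of which Sox18 and Sox2 are known from the dermal condensate under the hair placode, and held no mutant cell, so genotype and cluster cannot be told apart there. Its 262 listed wildtype cells had 2731 Ebf1 UMIs, or 1041 CPM (1002 to 1080), a level that overlaps that of wildtype mural cells given further on. After thinning 123 of 165 of its cells (74.5%) had an Ebf1 UMI. Ebf3 was also higher there, at 11.4 CPM (7.71 to 16.3), than in the wildtype cells of clusters 1, 4 and 7, at 0.616, 0.604 and 0.233 CPM. Ebf2 and Pparg had 1 UMI each there, Fabp4 had 0 and Zfp423 at 7.24 CPM (4.36 to 11.3). The cluster was upper-type by its gate genes, with Crabp1 at 4397 CPM and Clec3b at 0.762 CPM. Without it, dermal Ebf1 had a mutant over wildtype log2 ratio of 0.42, and its log2 ratio of lower-type over upper-type was 1.69 in the mutant and 1.80 in the wildtype library.

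Among the other dermal clusters, Ebf1 was next highest in cluster 2, at 450 CPM (439.6 to 460.6) in mutant and 391 CPM (376.7 to 406.6) in wildtype cells, and in cluster 12, led by Mfap5 and Klf4, at 439 CPM (410.5 to 468.8) and 304 CPM (279 to 330.1). In mutant cells the intervals of clusters 2 and 12 overlap. Cluster 3, led by Aspn and Nppc, was at 171 and 199 CPM. Clusters 1 and 7, led by genes of S phase and of mitosis, were lowest, at 88.3 and 87.2 CPM and at 93.6 and 89.1 CPM, with overlapping intervals. Ebf2 had 0 UMIs in cluster 1 of either library and 2 UMIs in cluster 7 of each. It was as scarce in cluster 0, with 3 UMIs in 2093 mutant cells and 0 in 99 wildtype cells. In cluster 4 it had 0 UMIs in 27 mutant cells and 1 in 1547 wildtype cells. Against these stood 399 and 74 UMIs in cluster 2 (25.2 and 10.9 CPM) and 135 and 73 UMIs in cluster 3. Cluster 12 had 9 Ebf2 UMIs in each library, at 4.45 CPM (2.03 to 8.44) in mutant and 4.93 CPM (2.25 to 9.35) in wildtype cells. Ebf2 was thus lower there than in cluster 2, although Clec3b was at 642 and 320 CPM in cluster 12. Ebf3 was highest in clusters 2 (63.3 and 38.6 CPM) and 12 (62.3 and 32.8 CPM), Pparg likewise in clusters 2 (33.4 and 22.6 CPM) and 12 (28.7 and 11.5 CPM), whereas Zfp423 was as high in cluster 3 (14.2 and 12.8 CPM) as in cluster 2 (16.4 and 13.8 CPM) within its intervals.

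**Figure D4:**
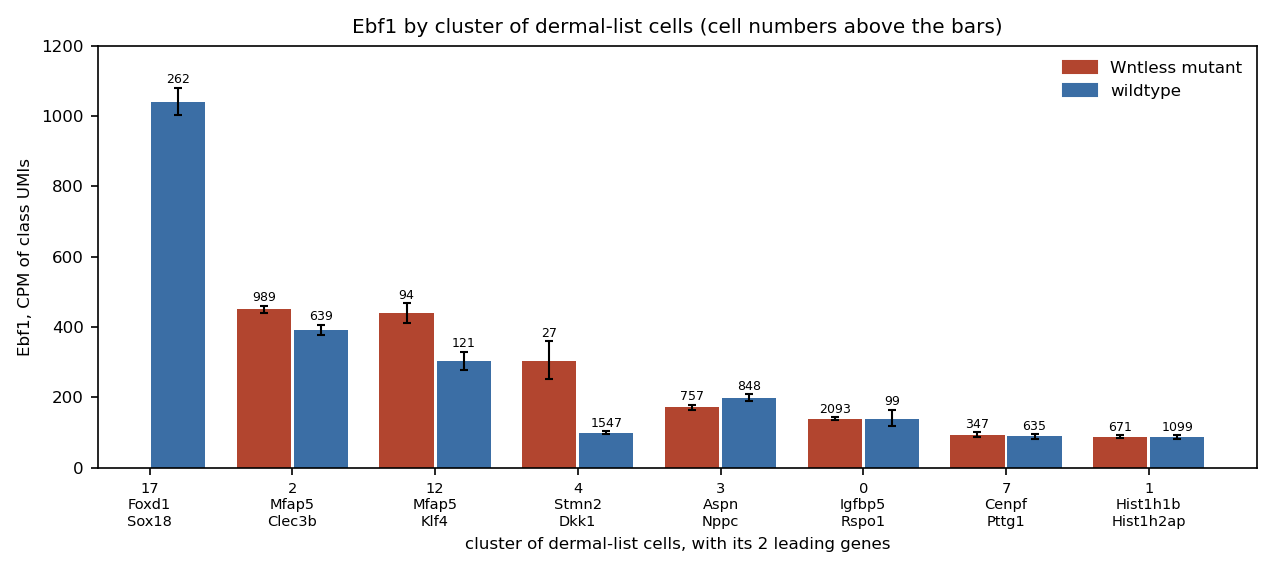
Ebf1 CPM in each cluster of dermal-list cells, Wntless mutant and wildtype, with 95% Poisson intervals and cell numbers above the bars; clusters are named by their 2 leading genes. The 262 wildtype cells of the cluster led by Foxd1 reach 1041 CPM, above every other dermal cluster.

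Across the skin, the Ebf genes were not confined to the dermis. Among the named cell types Ebf1 was highest in mural cells, the pericytes and smooth muscle cells around vessels. They were named by 7 markers among the 50 top genes of their cluster. Ebf1 had 6779 UMIs in 217 mutant mural cells (1089 CPM, 1063 to 1115) and 4970 UMIs in 213 wildtype ones (1031 CPM, 1002 to 1060). Every mural cell had at least 1 UMI before thinning. The wildtype cells of dermal cluster 17, at 1041 CPM, overlapped the wildtype mural interval. Ebf2 was also highest in mural cells, at 85.6 CPM (78.5 to 93.2) in mutant and 67.0 CPM (59.9 to 74.7) in wildtype cells, with a UMI in 48.6% and 46.1% of thinned cells. Next came cells of the dermis-like clusters that were off the authors' lists, 428 mutant and 408 wildtype. Their Ebf2 was at 35.3 CPM (31.7 to 39.3) and 23.6 CPM (19.9 to 27.8), above the 27.96 and 14.0 CPM of lower-type cells. Ebf1 was at 393 and 345 CPM in these off-list cells. Relative to the dermal list, Ebf1 was 5.45-fold and 5.53-fold higher in mural cells of the mutant and wildtype libraries, Ebf2 12.7-fold and 26.2-fold, and Fabp4 23.85-fold and 9.90-fold. Pparg, Cebpa and Cebpb were at least 1.5-fold lower there, with log2 ratios of -2.58, -1.64 and -1.85 in the mutant and -1.47, -1.77 and -1.47 in the wildtype library. The 3 higher and 3 lower members of each library stand beside 16.3% and 27.6% of all measured genes in the mutant and 13.5% and 25.9% in the wildtype library.

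Between genotypes, mural Ebf1 (log2 ratio 0.08, 0.03 to 0.13) and Ebf2 (0.35, 0.15 to 0.56) differed little, while Ebf3 was at 20.4 CPM in mutant and 6.43 CPM in wildtype cells (127 and 31 UMIs, 1.67, 1.09 to 2.28) and Fabp4 at 24.1 and 8.504 CPM (150 and 41 UMIs, 1.502, 0.996 to 2.04). With Cebpa (18 and 9 UMIs, 0.63, -0.60 to 1.97), 3 members were at least 1.5-fold higher and none lower, beside 7.54% and 3.86% of all measured genes. The 9 endothelial markers summed to 96.7 CPM in mutant and 93.5 CPM in wildtype mural cells, Cdh5 and Tie1 being at 0 in the mutant cells, and the 9 fibroblast markers to 3799 and 4040 CPM. Without the barcodes with the top 8% of doublet scores the mural log2 ratios were 1.72 for Ebf3 and 1.78 for Fabp4.

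Endothelial cells were the main site of Fabp4. It was at 536 CPM (505.9 to 566.6) in 99 mutant and 434 CPM (397.3 to 473.7) in 65 wildtype endothelial cells, and after thinning 47.1% and 43.8% of them had a UMI. Most of it lay in cluster 20, at 776 and 531 CPM, and little in cluster 22, led by Ccl21a and including the lymphatic genes Mmrn1 and Prox1, at 40.5 and 30.9 CPM. The endothelial log2 ratio of 0.30 (0.15 to 0.45) turned to -0.33 (-0.50 to -0.16) without the top 8% of doublet scores. Ebf1 and Ebf3 were present there too, Ebf1 at 112 and 124 CPM and Ebf3 at 31.8 (24.9 to 40.0) and 54.7 CPM (42.1 to 69.9), whereas Ebf2 had 0 UMIs in mutant and 4 UMIs in wildtype endothelial cells. Of 6 measured members, Pparg was at least 1.5-fold higher and Ebf3 (-0.78, -1.29 to -0.28) at least 1.5-fold lower in the mutant library, beside 11% and 6.38% of all measured genes. Among endothelial cells Ebf3 was again mostly in cluster 20, at 44.6 and 63.6 CPM, where Ebf2 had 0 and 4 UMIs.

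Muscle cells carried Ebf3 and Zfp423 but hardly the other members. Ebf3 was at 21.1 CPM (18.6 to 23.8) in mutant and 17.8 CPM (15.2 to 20.7) in wildtype muscle, and Zfp423 at 5.91 CPM (4.63 to 7.44) and 6.90 CPM (5.32 to 8.82). Both were higher in muscle cluster 9, led by Msc and Pax7, than in muscle cluster 18, led by Tnnt2 and Mylpf. Ebf3 was at 23.9 and 21.5 CPM in cluster 9 and at 5.05 and 3.65 CPM (9 and 7 UMIs) in cluster 18. Zfp423 was at 6.35 and 8.43 CPM, and at 3.37 and 1.04 CPM (6 and 2 UMIs), with overlapping intervals in the mutant library. Ebf2 had 20 and 3 UMIs in 480 and 521 muscle cells. Ebf1 was at 22.8 and 17.2 CPM, in 5.78% and 3.70% of thinned cells, against 2.75% and 3.11% of erythroid cells.

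The C/EBP genes were highest outside the dermis. Cebpb, which macrophages are known to use, was at 272 CPM (262.1 to 282.4) in mutant and 254 CPM (241.3 to 266.8) in wildtype macrophages, above every other class. Cebpa was at 25.6 CPM (22.6 to 28.9) and 21.8 CPM (18.2 to 25.8) in macrophages and at 26.6 CPM (21.99 to 32.0) and 15.7 CPM (13.2 to 18.5) in epidermis, and in both libraries the intervals of these classes overlap. Pparg, apart from the dermis, was found in macrophages (5.86 and 8.18 CPM) and in endothelial cells (9.27 CPM on 21 UMIs and 5.98 CPM on 7 UMIs), and it had 13 and 12 UMIs in mural cells. Between genotypes, 0 of the 6 members measured in macrophages were 1.5-fold higher and 3 (Ebf1, Ebf3 and Fabp4) 1.5-fold lower in the mutant library, beside 4.63% and 11.8% of all measured genes, and these 3 had from 9 to 262 UMIs in a library.

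Some low values in other classes moved with doublet scores. Ebf1 was at 10.8 CPM in mutant and 42.9 CPM in wildtype macrophages, and at 1.80 and 3.38 CPM without the top 8% of scores. In melanoblasts it was at 11.2 and 111 CPM (10 and 70 UMIs in 47 and 39 cells), and at 4.42 CPM (3 UMIs) and 0 UMIs without them. Ebf1 in muscle was at 1.36 and 0.997 CPM, and in epidermis at 2.75 and 7.13 CPM, without those barcodes. Ebf3 in muscle stayed at 21.2 and 18.2 CPM.

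**Figure D5:**
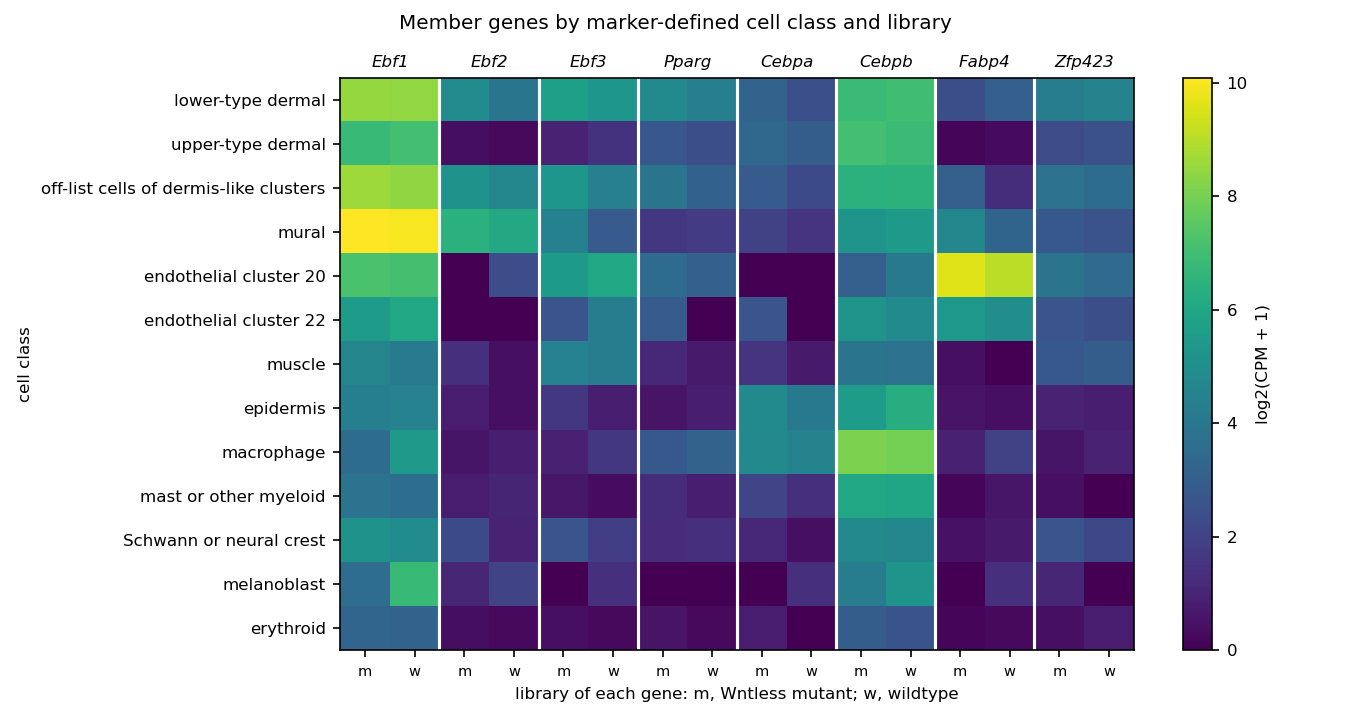
Colour gives log2(CPM + 1) of each member (paired columns, Wntless mutant then wildtype) in 13 cell classes (rows). Ebf1 and Ebf2 peak in mural cells, Fabp4 in endothelial cluster 20, Cebpb in macrophages, and Ebf3, Pparg and Zfp423 in lower-type dermal or endothelial cells.

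The genes whose levels were most like each member were sought over 14 classes in 2 libraries (28 points, which share their library and their depth), by Pearson correlation of log2(CPM + 1) among 9471 genes. For Ebf1 they were Timp1 (0.91), Eva1b (0.91) and Chst2 (0.90), and for Ebf2 Kcnj8 (0.96), itself one of the mural naming markers, Sema5b (0.93) and Aoc3 (0.91). For Ebf3 they were Fzd4 (0.90), Zfp423 (0.89) and Mest (0.87), and for Zfp423 Tro (0.93), Il17rd (0.90) and Ebf3. For Pparg they were Slco2a1 (0.86), Ptgs1 (0.84) and Ly6a (0.83), for Cebpa Ccdc106 (0.88), Khk (0.82) and Pla2g4a (0.82), and for Cebpb Arap1 (0.89), Sh3bp1 (0.88) and Naaa (0.87). For Fabp4 they were Emcn (0.96), itself an endothelial naming marker, Adgrf5 (0.95) and Thsd1 (0.94). Among the members, Ebf1 correlated with Ebf2 at 0.81, Cebpa with Cebpb at 0.81 and Ebf3 with Ebf2 at 0.51.

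Co-detection in single dermal cells was described on thinned counts. A Pparg UMI was found in 13.3% of Ebf1-positive mutant cells and 3.43% of the Ebf1-negative ones, and in 9.11% and 1.76% of wildtype cells. Among lower-type cells alone the shares were 22.3% (119 of 533, 18.9 to 26.1%) and 3.52% (5 of 142, 1.15 to 8.03%) in the mutant library, and 14.3% (29 of 203) and 4.88% (2 of 41), with overlapping intervals, in the wildtype library. By Ebf2 the split was not seen in lower-type cells: Pparg was found in 16.4% (19 of 116) of Ebf2-positive and 18.8% (105 of 559) of Ebf2-negative mutant cells, and in 8.33% (2 of 24) and 13.2% (29 of 220) of wildtype cells. Ebf3 was found in 42.2% (49 of 116) of Ebf2-positive and 29.9% (167 of 559) of Ebf2-negative lower-type mutant cells, and in 37.5% (9 of 24) and 25.5% (56 of 220) of wildtype cells, with overlapping intervals in both. By Ebf1, Ebf3 was found in 34.3% (183 of 533) of positive and 23.2% (33 of 142) of negative lower-type mutant cells. In wildtype cells the shares were 29.6% (60 of 203) and 12.2% (5 of 41), and the intervals overlapped in both libraries. Lower-type cells also came from more than 1 cluster, with 433 of the 675 mutant cells in cluster 2 and 211 in cluster 3. Over all listed mutant cells of clusters 2 and 3, thinned shares were 88.3% and 60.5% for Ebf1 and 23.0% and 5.61% for Pparg. The part of this mix in the co-detection shares was not tested. Cells of 1 library are not replicates, so the co-detection shares themselves were not tested.

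The pathway around the members was read from 4 lists, mutant over wildtype in dermal-list cells, where 10.9% and 5.64% of all measured genes were 1.5-fold higher and lower. The mutant over wildtype values of the lists were not weighted to wildtype gate proportions. Of 12 partners and other early regulators none passed 1.5-fold either way (median log2 ratio 0.32). Zfp521, an antagonist of the Ebf factors and Zfp423, was at 29.98 and 22.1 CPM (0.44), Cebpd, which acts with Cebpb, at 37.1 and 26.6 CPM (0.48), Klf4 at 93.7 and 67.5 CPM (0.47) and Stat5a at 3.98 and 2.70 CPM (0.56). Between lower-type and upper-type cells, 3 of the 12 were higher (Cebpd, Klf4 and Klf15) and 3 lower (Prdm16, Zfp467 and Nr3c1) in the mutant library, with a median of -0.12, beside 21.2% and 16.6% of all measured genes. In the wildtype library 2 of 10 measured were higher (Cebpd and Klf4) and 2 lower (Zfp467 and Rxra), with a median of -0.05, beside 21.2% and 17.6%. Klf4 had log2 ratios of 5.22 in mutant and 3.85 in wildtype cells.

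Of 8 measured genes that hold adipogenesis back, Klf2 was at 61.4 and 35.7 CPM (0.78) and the other 7 lay between (median 0.27), among them the preadipocyte gene Dlk1 at 2242 and 1699 CPM (0.40), Sox9 (0.52) and Id2 (0.24). Of 7 measured in lower-type and upper-type cells, 5 were higher in the lower type of both libraries (Dlk1, Klf2, Nr2f2, Sox9 and Tcf7l2) and 1, Id2, was lower. Over all measured genes 21.2% were higher there in each library, and 16.6% in the mutant and 17.6% in the wildtype library were lower. Of 12 progenitor surface and stroma genes, 4 were higher and 3 lower (median 0.29). Dpp4, which marks multipotent progenitors, was at 13.7 and 4.61 CPM (1.57), Ly6a at 14.4 and 7.86 CPM (0.87), Cd55 at 33.7 and 18.2 CPM (0.89) and Cd24a at 31.4 and 95.1 CPM (-1.60). Within lower-type cells 1 of 11 measured, Dpp4, was higher and none lower (median 0.09), beside 9.23% and 4.3% of all measured genes. Within upper-type cells 2 of 10 were higher and 3 lower, Dpp4 among the lower, beside 8.75% and 6.99%. Between lower-type and upper-type cells 5 of 11 were higher and 3 lower in both libraries.

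Genes of the mature fat cell were mostly scarce. Of 24, 19 were measured, 2 were higher (Plin1 and Dgat2) and 1 lower (Cd36), with a median of 0.02. Adiponectin (Adipoq), leptin (Lep) and Cidec had 0 UMIs in the dermal cells of both libraries, and Plin1, the coat of the lipid droplet, had 17 and 8 UMIs. Lpl, which splits circulating fat, was at 48.4 and 32.5 CPM (0.58), Lipe at 2.87 and 2.20 CPM (0.39), Dgat2 at 2.03 and 1.35 CPM (0.59) and Acsl1 at 4.83 and 6.03 CPM (-0.32). In lower-type over upper-type mutant cells 7 of 15 measured were higher and 1 lower (median 0.57), beside 21.2% and 16.6% of all measured genes. In wildtype cells 5 of 14 were higher and 1 lower (median 0.38), beside 21.2% and 17.6%. The lists that check the gate split as their names say within each library: all 8 lower dermis genes were 1.5-fold higher in lower-type cells of both libraries, and 4 of 5 upper dermis genes in the mutant and 5 of 5 in the wildtype library were lower there. Between genotypes 5 of the 8 were higher in the mutant dermis (median 0.86), Gdf10 at 1.14, and 4 of the 5 lower (median -2.05), Lef1 at -2.97. Within lower-type cells 1 of the 8, Gdf10, was higher (median 0.10), and within upper-type cells 4 of the 8 were (median 0.57). Of the 5 upper dermis genes, 4 were also lower within upper-type cells (median -1.72).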

How the data were processed

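The authors deposited, for each library, a matrix of UMI counts per gene and barcode, with gene names and barcodes as text, and lists of dermal barcodes whose rule is not given in the sources used here. Per the file headers, Cell Ranger 6.1.2 wrote the matrices; the submitters' processing notes name the build mm10 and Seurat. UMI counts were summed per class and library to CPM with exact Poisson 95% intervals. Log2 ratios have exact conditional binomial intervals, and shares Clopper-Pearson intervals. Genes with at least 20 UMIs over both sums counted as measured and 1.5-fold as a difference. The limit for a count of 0 is 3 counts. Cells were thinned to 9000 UMIs for gates and shares.

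All barcodes were clustered together with scanpy 1.11.5 and leidenalg 0.10.2 (2000 variable genes without the 8 members, 30 components, 15 neighbours, Leiden resolution 0.5, 23 clusters, no batch correction), and a cluster was named with at least 3 markers among its 50 top genes. Scrublet called 1 mutant barcode (0.00957%), so it did not work there, and 244 wildtype barcodes (2.69%); no doublets were removed, and an alternative left out the top 8% of scores (836 mutant and 725 wildtype barcodes). Calculations used Python 3.11.15, numpy 2.4.6, scipy 1.17.1 and pandas 2.3.3. The ratio intervals were tested on simulated Poisson counts only, which leave out how UMIs vary between cells. The members, lists and settings were chosen with earlier results of these data known. The genes named in the text are the members, list genes by size, and the 3 nearest patterns of each member. GENCODE vM21 held 32235 of the 32285 gene identifiers.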

Additional observations from a re-analysis of the deposited data

Results flagged for a closer look

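For Ebf3 and Fabp4 the mutant and wildtype libraries lay apart in opposite directions in different cell classes, by at least 1.5-fold and with counting intervals clear of 0. None of these differences between classes was tested, since each genotype had 1 library.

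Ebf3 had a mutant over wildtype log2 ratio of 1.67 in mural cells (20.4 and 6.43 CPM), of -0.84 in upper-type dermal cells (1.02 and 1.81 CPM) and of -0.78 in endothelial cells (31.8 and 54.7 CPM). Without the top 8% of doublet scores the mural and endothelial ratios were 1.72 and -0.92. The upper-type ratio was -0.29 without the cluster led by Foxd1 and 0.081 without clusters 0, 4 and 17. In endothelial cluster 20, which held most of the endothelial Ebf3 UMIs, the levels were 44.6 and 63.6 CPM, a log2 ratio of -0.51 (-1.04 to 0.01) that does not reach 1.5-fold.

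Fabp4 had a log2 ratio of 1.502 in mural cells (24.1 and 8.504 CPM) and of -1.74 in macrophages, the second on 9 mutant and 18 wildtype UMIs. Without the top 8% of doublet scores macrophages held 7 mutant and 1 wildtype UMIs, a log2 ratio of 1.79 (-1.17 to 7.29).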

How the results depend on the processing

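Of the 8 members, 6 were at least 1.5-fold higher in lower-type than in upper-type cells in every setting run, in both libraries. No paired analysis was possible because each genotype had 1 library, and no replicate could be left out. Of the alternative values for single genes, 591 lay within the counting interval of the value reported, 154 lay outside it, and 4 reversed a value past 1.5-fold; of the counts, 116 stayed within 1.5 times and 18 did not. The cause of these changes was not tested.

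Among lower-type cells the 1 member that was lower became 0 with means over cells, without the top 8% of doublet scores, with the gate on unthinned counts and with Mfap5 alone. Among upper-type cells the 1 higher member became 0 without the top 8% of doublet scores, without clusters 0, 4 and 17, with a gate of 2 UMIs, on unthinned counts, and with Clec3b or Mfap5 alone, and the 1 lower member became 0 without those clusters, without the cluster led by Foxd1, and with Clec3b alone. In the dermal list the 3 higher members became 1 in clusters named fibroblast, which left cluster 0 alone, and 1 at wildtype gate proportions, where 1 was lower. Of 51 measured pathway genes, 7 were higher and 4 lower, against 2 lower with a minimum of 50 UMIs and 13 higher without clusters 0, 4 and 17.

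Ebf3 changed sign to 0.081 in upper-type cells without clusters 0, 4 and 17, to 0.38 there with Mfap5 alone, and to -2.68 in clusters named fibroblast, and Ebf2 changed sign to -0.48 in upper-type cells gated on unthinned counts. Without a reversal of a value past 1.5-fold, 11 further values changed sign. In clusters named fibroblast, Ebf1 was at -0.034, Zfp423 at -0.035 and Fabp4 at -4.0 in the dermal comparison, and at wildtype proportions they were at -0.091, -0.043 and -0.74. In the named clusters Ebf3 had 15 and 0 UMIs and Fabp4 6 and 0, so the values of both rest on a wildtype floor of 3 counts and give no direction. Upper-type Pparg was at -0.18 without clusters 0, 4 and 17, and upper-type Ebf1 at 0.16 without the cluster led by Foxd1. Lower-type Ebf1 was at -0.009 on thinned counts, lower-type over upper-type Cebpa at 0.003 in the mutant library without clusters 0, 4 and 17, and wildtype Pparg in endothelial over dermal cells at 0.61 without the top 8% of doublet scores. The weighting to wildtype proportions and the setting without the cluster led by Foxd1 were chosen after seeing the data. Depth limits Ebf2 in upper-type cells (15 and 8 UMIs) and Fabp4 throughout the dermis.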
